A study of Mus musculus with 6 samples.

Results

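The nuclear genes of the respiratory chain were examined in mouse muscle with and without Tarsl2, a gene for a threonyl-tRNA synthetase-like protein. Members were the protein-coding rows of the count table whose gene name starts with Nduf, Uqcr or Atp5, or with Cox followed by a digit from 4 to 8. This rule used names and no measured value, and it took 89 of the 53084 genes in the table. RNA was sequenced from muscle of 3 Tarsl2+/+ mice (583, 584 and 595) and 3 Tarsl2-/- mice (588, 589 and 591), 1 library per mouse. All were male mice, 6 weeks old, that received standard chow, and their strain is C57BL/6 in the sample records, while the methods give C57BL/6J as the background of the Tarsl2 line. The Tarsl2-/- mice carried a CRISPR/Cas9 deletion of a genomic fragment with exon 3 of Tarsl2 in every cell, and which muscle was taken was not given in the sources used here.

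Electrons from NADH enter the respiratory chain at complex I and pass through complex III and cytochrome c to complex IV, which reduces oxygen, and complex V (ATP synthase) makes ATP from the proton gradient that results. Most subunits are encoded in the nucleus and imported, and a few hydrophobic ones are encoded by mitochondrial DNA. Complex I has core subunits and accessory subunits around them, and the core subunits encoded in the nucleus hold the flavin and the iron-sulfur clusters. The complex is put together by assembly factors that are not part of the finished enzyme. Muscle depends strongly on this system, and slow, oxidative fibres hold more mitochondria than fast, glycolytic ones.

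By name, 7 members were core subunits of complex I encoded in the nucleus, 29 were accessory subunits and 8 were assembly factors (Ndufaf1 to Ndufaf8). Ndufa4 and Ndufa4l2 were kept apart, since NDUFA4 is known as a subunit of complex IV. There were 8 members of complex III, 17 of complex IV and 15 of complex V. The other 3 members carry the names but are no subunits of the enzymes: Cox7a2l, which takes part in supercomplexes, and Atp5s and Atp5sl. Cyc1, Cycs, complex II and the mitochondrially encoded subunits fall outside the rule and are given at the end.

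The libraries held between 16176591 and 20123767 counts, and values are given as CPM, the count per library total with TMM factors applied. A count of 3 amounts to 0.149 CPM in the deepest library and 0.185 CPM in the shallowest, and such limits cover counting error only. For the targeted gene, Tarsl2, between 456 and 605 counts were found per Tarsl2+/+ library and between 30 and 40 per Tarsl2-/- library, so each library matched its label. Skeletal muscle markers were abundant, whereas 10 retinal markers had at most 7 counts in any library, although the sample records describe a retinal extraction. Cardiac markers summed to at most 8.35 CPM. The labels give no batch. Whether the 6 sequenced mice were littermates is not stated for them, so an effect of litter cannot be told apart from genotype. The p-values set the genotype difference against the spread between mice of a genotype, part of which may be technical.

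In Tarsl2-/- muscle, 2 of the nuclear respiratory chain genes rose and 1 fell, while the rest did not pass the test. Atp5b, the catalytic beta subunit of ATP synthase, and Ndufa9, an accessory subunit of complex I, were higher, and Ndufaf5, an assembly factor that modifies a core subunit of complex I, was lower. The test was edgeR's quasi-likelihood test at an adjusted p under 0.05, with the Benjamini-Hochberg correction made over all 15075 tested genes. Of the 89 members, 87 passed the filter on low counts and were tested. The 3 called members stand beside 2.27% of all tested genes called, made up of 0.896% higher and 1.37% lower in the knockout. Of the members, 43 had a log2 fold change (Tarsl2-/- relative to Tarsl2+/+) above 0 and 44 below. Their median was -0.0041, and the median over all tested genes was 0.0025. At an unadjusted p under 0.05, 10 members were higher (11.5%, against 9.57% of all tested genes) and 6 lower (6.90%, against 10.2%).

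**Figure D1:**
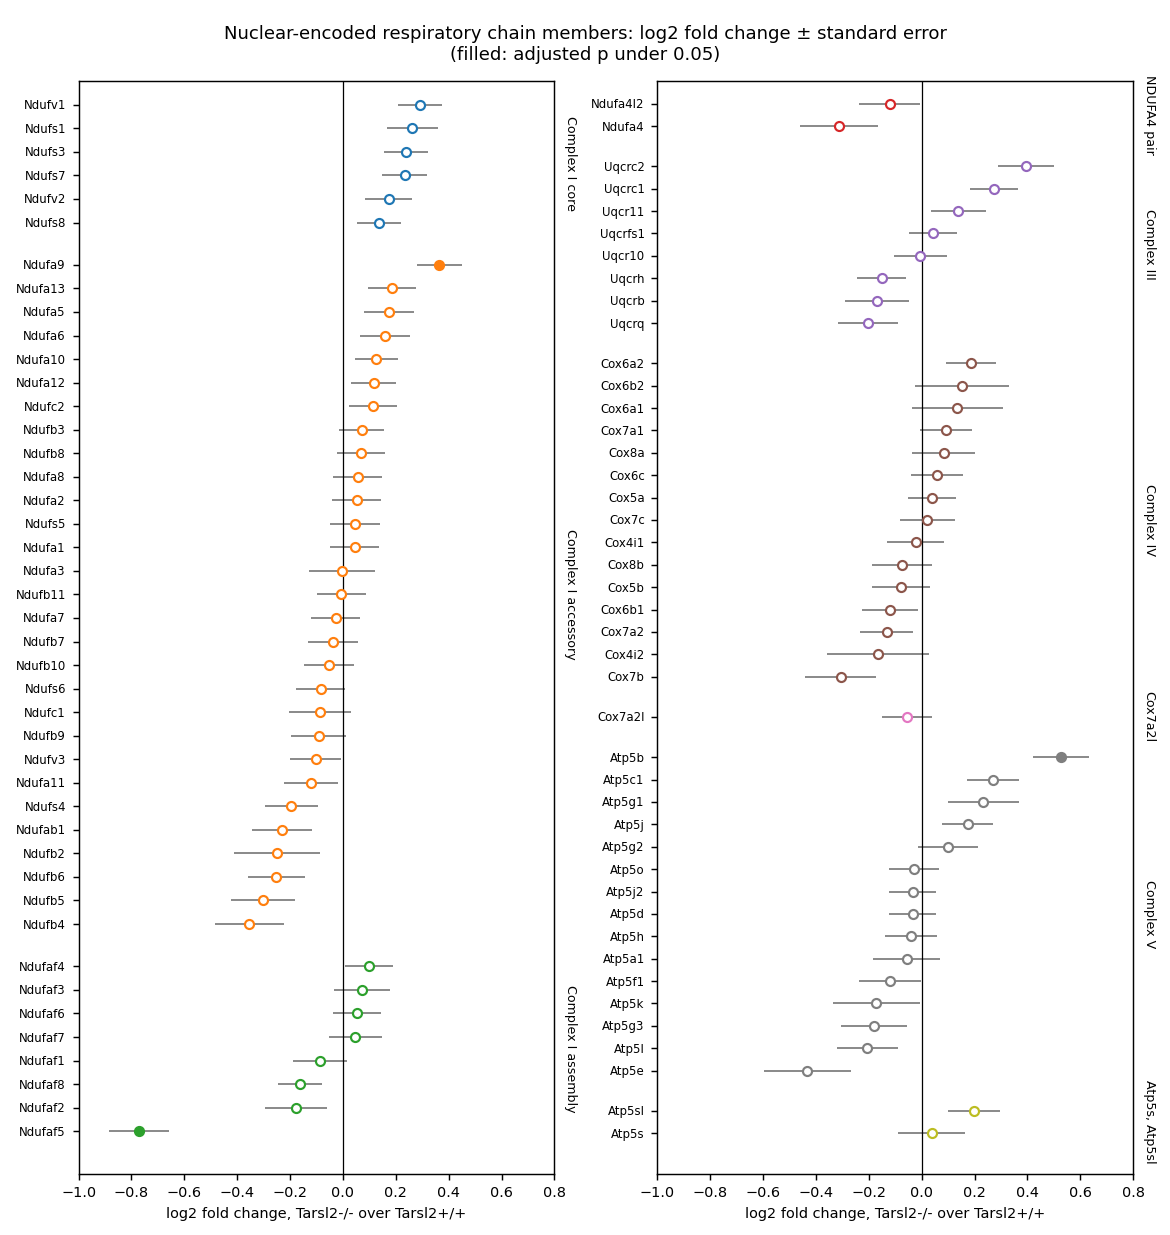
Log2 fold change (Tarsl2-/- over Tarsl2+/+, x axis) of the tested members reported by name, 1 row per gene, grouped and coloured by complex and role; horizontal bars are standard errors and filled points have an adjusted p under 0.05. The 3 filled points are Ndufa9 at 0.36, Atp5b at 0.53 and Ndufaf5 at -0.77, and the core subunits of complex I shown lie to the right of 0.

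The genotypes did not overlap for 24 of the 87 tested members. In 18 members (20.7%) the lowest Tarsl2-/- mouse exceeded the highest Tarsl2+/+ mouse, which held for 12.6% of all tested genes. In 6 members (6.90%) every Tarsl2-/- mouse was below, which held for 12.0% of all tested genes. The 18 members were 6 core and 5 accessory subunits of complex I, 2 subunits of complex III, 1 of complex IV, 3 of complex V and Atp5sl. The 6 members were 3 accessory subunits of complex I, 2 assembly factors and 1 subunit of complex III.

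Ndufaf5 had the largest difference of any tested member. It had 217, 213 and 222 CPM in the Tarsl2+/+ mice 583, 584 and 595, and 151, 122 and 109 CPM in the Tarsl2-/- mice 588, 589 and 591. The Tarsl2+/+ mice lay close together and all were above the highest Tarsl2-/- mouse. The means were 217 ± 4.57 CPM and 127 ± 21.3 CPM (SD, n = 3). The log2 fold change was -0.77 with a standard error of 0.11 (adjusted p = 0.0081 by edgeR's quasi-likelihood test). Ndufaf5 was called in each of the 6 fits that left out 1 library. The gene (ENSMUSG00000027384) lies at chr2:140170649-140203689 on the plus strand (mm10, GRCm38) and overlaps no other annotated gene.

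Atp5b had 1594, 1821 and 1559 CPM in the Tarsl2+/+ mice and 2214, 2441 and 2514 CPM in the Tarsl2-/- mice. The lowest Tarsl2-/- mouse was above the highest Tarsl2+/+ mouse. Means were 1658 ± 143 and 2389 ± 157 CPM (SD, n = 3), with a log2 fold change of 0.53 and a standard error of 0.11 (adjusted p = 0.028 by edgeR's quasi-likelihood test). Atp5b was the only subunit gene of ATP synthase called in this fit. Atp5b (ENSMUSG00000025393) lies at chr10:128083273-128090391 on the plus strand, with the small RNA genes Snord59a and Mir677 inside it.

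Ndufa9 had 174, 186 and 167 CPM in the Tarsl2+/+ mice and 225, 223 and 231 CPM in the Tarsl2-/- mice, again with no overlap. The means were 176 ± 9.39 and 226 ± 4.08 CPM (SD, n = 3). Its log2 fold change of 0.36 had a standard error of 0.084 and was close to the threshold (adjusted p = 0.0488 by edgeR's quasi-likelihood test). Ndufa9 (ENSMUSG00000000399) lies at chr6:126821721-126849136 on the minus strand and overlaps the antisense RNA gene 1700018A23Rik. The kit marks strand, but the counting setting was not given, so reads of the antisense partner cannot be told apart. The calls of Atp5b and Ndufa9 depended on the libraries included. Both were kept when Tarsl2+/+ mouse 584 was left out, and both were lost when any of the other 5 libraries was left out. The adjusted p of edgeR's quasi-likelihood test then ran from 0.0555 to 0.140 for Atp5b and from 0.0978 to 0.167 for Ndufa9. In those 5 fits between 81 and 187 of all tested genes were called, against 342 with all 6 libraries. Over the 6 fits that left out 1 library, the log2 fold changes stayed between 0.48 and 0.60 for Atp5b and between 0.33 and 0.41 for Ndufa9.

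**Figure D2:**
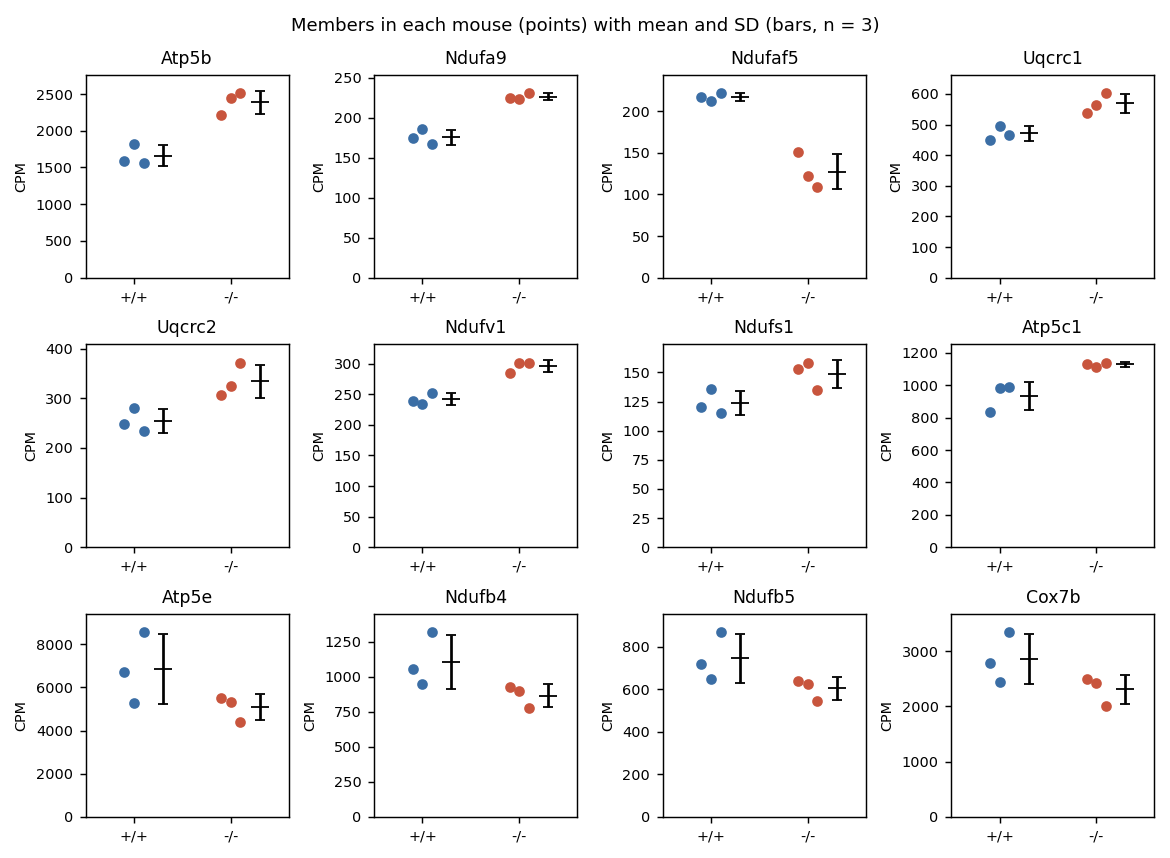
CPM (y axis, from 0) of 12 members in each Tarsl2+/+ mouse (blue, 583, 584 and 595 from left to right) and each Tarsl2-/- mouse (red, 588, 589 and 591); the black bars are mean and SD of 3 mice. The genotypes do not overlap for Atp5b, Ndufa9 and Ndufaf5, whereas for Atp5e, from 5293 to 8565 CPM in Tarsl2+/+ and from 4398 to 5512 CPM in Tarsl2-/- mice, they do.

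The promoters of the 3 called members are shown because these members carry the calls and their sequences differ in the motifs they hold. Each runs from 250 bases before to 50 bases after the annotated start, from RefSeq on GRCm38.p6, 5′ to 3′ on the gene's strand. Atp5b is read at chr10:128083057-128083356 (plus strand), Ndufa9 at chr6:126849095-126849394 (minus strand) and Ndufaf5 at chr2:140170396-140170695 (plus strand). Capitals mark the letters of 6 motifs searched on both strands, namely NRF1 (GCGCATGCG), ETS factors such as GABP (CGGAAG), YY1 (AAGATGGCG), SP1 (GGGCGG), the CCAAT box (CCAAT) and ERR (TCAAGGTCA).
Atp5b: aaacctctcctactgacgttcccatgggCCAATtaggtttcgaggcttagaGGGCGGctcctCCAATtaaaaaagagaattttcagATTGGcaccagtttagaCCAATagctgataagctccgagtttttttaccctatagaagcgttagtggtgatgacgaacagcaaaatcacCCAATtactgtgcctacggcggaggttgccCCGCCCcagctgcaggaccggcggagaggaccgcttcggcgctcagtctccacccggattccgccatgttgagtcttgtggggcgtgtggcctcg
Ndufa9: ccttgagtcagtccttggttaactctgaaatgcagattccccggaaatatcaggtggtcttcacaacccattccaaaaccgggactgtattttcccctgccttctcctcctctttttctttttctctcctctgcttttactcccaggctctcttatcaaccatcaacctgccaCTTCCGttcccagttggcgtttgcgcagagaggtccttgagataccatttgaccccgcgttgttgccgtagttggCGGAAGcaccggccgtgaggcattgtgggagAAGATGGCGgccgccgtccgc
Ndufaf5: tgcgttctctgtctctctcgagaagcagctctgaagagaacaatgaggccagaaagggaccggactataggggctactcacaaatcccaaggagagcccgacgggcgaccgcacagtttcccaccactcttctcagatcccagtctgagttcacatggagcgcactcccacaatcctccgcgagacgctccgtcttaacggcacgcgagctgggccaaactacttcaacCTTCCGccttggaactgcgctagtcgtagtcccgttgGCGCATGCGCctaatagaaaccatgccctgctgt
The Atp5b window held 5 CCAAT boxes and 2 SP1 motifs. The Ndufa9 window held 2 ETS motifs and 1 YY1 motif, and that of Ndufaf5 held 1 ETS motif and an NRF1 motif that reads on both strands, so that its matches overlap.

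NRF1, GABP and YY1 are known regulators of nuclear genes for mitochondrial proteins. Of the 89 members, 71 had an entry, with 76 promoters among 32851 in the table. The NRF1 letters were in 10 of the 76 member promoters (13.2%) and in 1.75% of all promoters. The YY1 letters were in 8 (10.5%, against 1.40% of all), and the ETS letters in 31 (40.8%, against 16.9%). The more general SP1 and CCAAT letters were each in 32 (42.1%), against 35.7% and 37.4% of all promoters. The ERR letters were in 1 member promoter (1.32%, against 0.423%). A match describes these letters in this window and no binding was measured. The 5 core subunits of complex I with an entry held the ETS letters in 2 promoters, YY1 in 1 and NRF1 in 0.

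The nuclear core subunits of complex I were higher in Tarsl2-/- muscle on average. Each differed by a small amount that did not pass the test. These 7 genes encode the peripheral arm, with the flavin site (Ndufv1) and the chain of iron-sulfur clusters that lead to the quinone. All 7 log2 fold changes were above 0, from 0.14 (Ndufs8) to 0.29 (Ndufv1), with a median of 0.24 against 0.0025 over all tested genes. None of the 7 was called (edgeR's quasi-likelihood test). At an unadjusted p under 0.05, 5 were higher (71.4%, against 9.57% of all tested genes). Of the 7, limma-voom called 0 and DESeq2 1 (Ndufv1, adjusted p = 0.0335 by DESeq2). In 6 of the 7 the genotypes did not overlap, beside 12.6% of all tested genes.

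Ndufv1 had 239, 234 and 252 CPM in the Tarsl2+/+ mice and 285, 301 and 302 CPM in the Tarsl2-/- mice (log2 fold change 0.29, standard error 0.084, adjusted p = 0.0923 by edgeR's quasi-likelihood test). Ndufs1, the largest subunit, had 121, 136 and 115 CPM in the Tarsl2+/+ mice and 153, 158 and 135 CPM in the Tarsl2-/- mice. It was the core subunit whose genotypes overlapped, since Tarsl2-/- mouse 591 lay just under Tarsl2+/+ mouse 584. Its log2 fold change was 0.26 with a standard error of 0.098 (adjusted p = 0.167 by the same edgeR test). At the low end, Ndufv2 had a log2 fold change of 0.17 and Ndufs8 of 0.14, with adjusted p of 0.308 and 0.398 in that edgeR fit.

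Taken per mouse as the mean log2 CPM over the 7 genes relative to the Tarsl2+/+ mean, the core subunits were at -0.034, 0.027 and 0.0073 in the Tarsl2+/+ mice and at 0.21, 0.22 and 0.24 in the Tarsl2-/- mice. The 3 Tarsl2-/- mice thus lay together above the Tarsl2+/+ mice. The median over the core subunits stayed between 0.21 and 0.25 over the fits with another tool, scaling or filter and those that left out each library, with all 7 above 0 in every one. With upper quartile scaling, in which the median of all tested genes was -0.019, it was 0.21.

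The accessory subunits of complex I did not move one way. Of 29, 13 had a log2 fold change above 0 and 16 below, with a median of -0.0058 and a range from -0.35 to 0.36. Besides Ndufa9, Ndufa13 stood at the upper end at 0.19 (standard error 0.091, adjusted p = 0.282 by edgeR's quasi-likelihood test), and it shares its strand with the overlapping gene Yjefn3. At the lower end were Ndufb4 and Ndufb5, both subunits of the membrane arm. Ndufb4 had 1055, 948 and 1320 CPM in the Tarsl2+/+ mice and 927, 897 and 775 CPM in the Tarsl2-/- mice, so that the genotypes did not overlap although Tarsl2+/+ mice 584 and 595 lay far apart. Its log2 fold change was -0.35 with a standard error of 0.13, and that of Ndufb5 was -0.30 with a standard error of 0.12 (adjusted p = 0.161 and 0.194 by edgeR's quasi-likelihood test). Without Tarsl2+/+ mouse 595 they were -0.21 and -0.18. Every Tarsl2-/- mouse was below every Tarsl2+/+ mouse for Ndufb4, Ndufb5 and Ndufb6. These 3 genes were named for that after their values were seen. They are 10.3% of the 29 accessory subunits, and 12.0% of all tested genes were below in the same way. In 5 accessory subunits (17.2%) every Tarsl2-/- mouse was above, beside 12.6% of all tested genes.

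Per mouse, the accessory subunits were at -0.025, -0.085 and 0.11 in the Tarsl2+/+ mice and at 0.033, -0.027 and -0.063 in the Tarsl2-/- mice, so that the genotypes overlapped. All 36 complex I subunits together had a median of 0.05, with 20 above 0. The difference between core and accessory subunits was not tested.

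**Figure D3:**
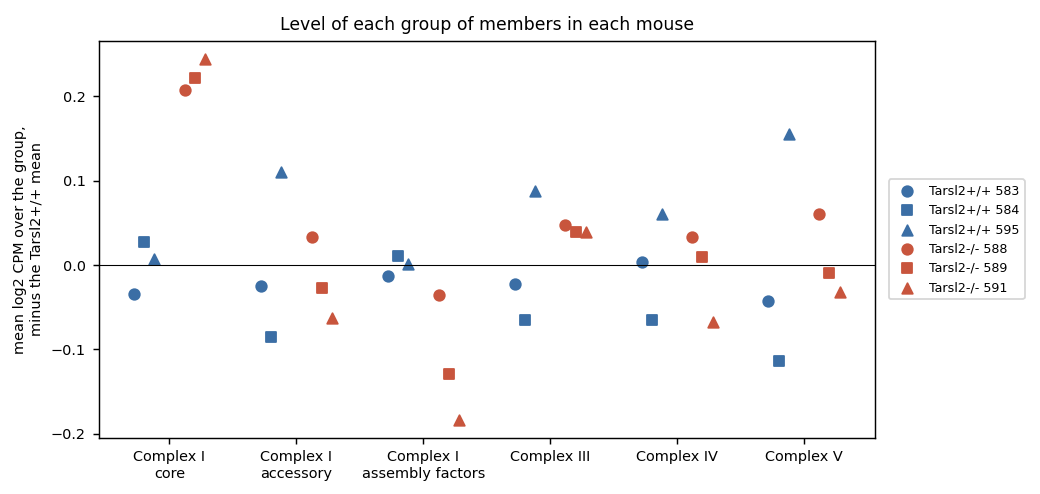
Mean log2 CPM over the tested members of each group, minus the Tarsl2+/+ mean (y axis), with 1 point per mouse, blue for Tarsl2+/+ and red for Tarsl2-/-. The nuclear core subunits of complex I separate the genotypes, and so do its assembly factors. The assembly factors no longer do so without Ndufaf5. Mouse 588 is then at 0.034, above all Tarsl2+/+ mice, and mice 589 and 591 are at -0.029 and -0.068, below them. Tarsl2+/+ mouse 595 is the highest point for the accessory subunits and for complexes III, IV and V.

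The assembly factors of complex I had a balance of signs apart from the low value of Ndufaf5. The median log2 fold change of the 8 was -0.02, with 4 above 0 and 4 below, and Ndufaf5 was the 1 that fell. Ndufaf2 had the next lowest value, -0.18 (standard error 0.12, adjusted p = 0.435 by edgeR's quasi-likelihood test). Ndufaf4 and Ndufaf3 were highest at 0.10 and 0.07, of which the value of Ndufaf3 turned to -0.016 without Tarsl2+/+ mouse 583. The mean over the group was from -0.013 to 0.011 in the Tarsl2+/+ mice and -0.036, -0.13 and -0.18 in the Tarsl2-/- mice. The genotypes separated there, which did not hold without Ndufaf5, in a calculation added after the values were seen. The other 7 were then from -0.015 to 0.017 in the Tarsl2+/+ mice. In Tarsl2-/- mice 588, 589 and 591 they were at 0.034, -0.029 and -0.068. The genotypes overlapped, with mice 589 and 591 still below all Tarsl2+/+ mice.

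In complex III, which takes electrons from ubiquinol, the core proteins Uqcrc1 and Uqcrc2 had the highest values. Uqcrc2 had 249, 281 and 234 CPM in the Tarsl2+/+ mice and 307, 324 and 372 CPM in the Tarsl2-/- mice. Its log2 fold change was 0.39 with a standard error of 0.11 (adjusted p = 0.0756 by edgeR's quasi-likelihood test). It passed with DESeq2 (adjusted p = 0.013). Uqcrc1 had 450, 496 and 467 CPM in the Tarsl2+/+ mice and 539, 565 and 603 CPM in the Tarsl2-/- mice (log2 fold change 0.27, standard error 0.091, adjusted p = 0.131 by edgeR's quasi-likelihood test). For both core proteins the genotypes did not overlap. The small subunits Uqcrq and Uqcrb lay at the other end, at -0.20 and -0.17 (adjusted p = 0.356 and 0.482 by the same edgeR test). The median over the 8 members was 0.019, with 4 above 0 and none called. At an unadjusted p under 0.05, 2 were higher (25%, against 9.57% of all tested genes) and 0 lower (against 10.2%). DESeq2 called 1 of the 8, and limma-voom 0.

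Complex IV, cytochrome c oxidase, ranged from -0.31 to 0.19 over its 15 tested members (median 0.021, 8 above 0, with medians from -0.032 to 0.041 in the fits without 1 library), with none called by edgeR's quasi-likelihood test, DESeq2 or limma-voom. Only Cox7b had an unadjusted p under 0.05, as lower (6.67% of the 15, against 10.2% of all tested genes). Cox7b had 2779, 2440 and 3345 CPM in the Tarsl2+/+ mice and 2502, 2417 and 2010 CPM in the Tarsl2-/- mice (log2 fold change -0.31, adjusted p = 0.236 by the edgeR test), and the genotypes overlapped. Without Tarsl2+/+ mouse 595 it was at -0.18. Its testis form Cox7b2 had 1 count in a single Tarsl2-/- library, and Cox8c, also of the testis, had 0 counts in all 6, which allows up to 0.185 CPM in the shallowest library. These were the 2 members that the filter left out. The lung form Cox4i2 and the testis form Cox6b2 passed the filter at between 3.13 and 5.52 CPM, with log2 fold changes of -0.17 and 0.15. Cox4i1, the main form, was at -0.023, and its sign turned without Tarsl2+/+ mouse 595 or Tarsl2-/- mouse 588. The pair of NDUFA4 genes had -0.31 (Ndufa4) and -0.12 (Ndufa4l2), neither called (adjusted p = 0.267 and 0.603 by edgeR's quasi-likelihood test).

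The subunits COX6A, COX7A and COX8 of complex IV each have a form of heart and skeletal muscle beside a widely expressed form. Their ratio within a library cannot be changed by scaling between libraries, and an exact permutation test (two-sided) was used, whose smallest p for 3 mice against 3 is 0.1. For Cox7a1 over Cox7a2, the log2 ratio of counts was 0.57, 0.54 and 0.58 in the Tarsl2+/+ mice and 0.71, 0.76 and 0.90 in the Tarsl2-/- mice. The genotypes did not overlap. The difference was 0.23 (exact permutation p = 0.1, adjusted p = 0.3 over the 3 ratios), which is the smallest p this design can give and does not pass. The genes behind it had log2 fold changes of 0.09 (Cox7a1) and -0.13 (Cox7a2). For Cox6a2 over Cox6a1 the log2 ratio was 1.61 ± 0.40 and 1.66 ± 0.33 (SD, n = 3; exact permutation p = 0.8). For Cox8b over Cox8a it was 3.26 ± 0.34 and 3.12 ± 0.12 (SD, n = 3; exact permutation p = 0.6). In both pairs the genotypes overlapped. The muscle form was the more abundant by counts in all 6 mice for the 3 pairs, from 0.54 to 3.59 on the log2 scale.

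**Figure D4:**
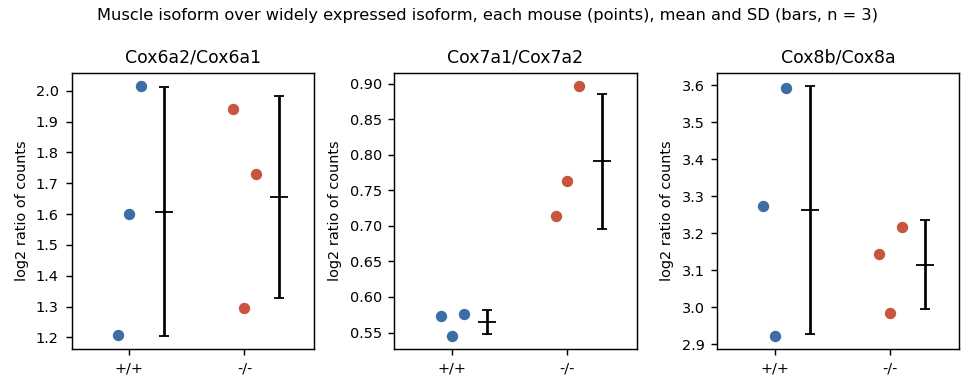
Log2 ratio of the counts of the muscle form to those of the widely expressed form (y axis, not starting at 0) for 3 subunits of complex IV, with 1 point per mouse and mean and SD of 3 mice. The genotypes separate for Cox7a1 over Cox7a2 (0.54 to 0.58 against 0.71 to 0.90) and overlap for the other two pairs.

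Among the 15 subunits of ATP synthase, Atp5b rose and none fell. The median was -0.035, with 5 above 0 and 10 below. Atp5c1, the gamma subunit of the central stalk, had 836, 984 and 987 CPM in the Tarsl2+/+ mice and 1134, 1114 and 1140 CPM in the Tarsl2-/- mice (log2 fold change 0.27, standard error 0.099, adjusted p = 0.159 by edgeR's quasi-likelihood test). The partner of the beta subunit in the catalytic head, the alpha subunit gene Atp5a1, was at -0.057 (adjusted p = 0.852 by the same edgeR test) and was named after its value was seen. The beta and alpha subunits are present in equal number in the enzyme, and their transcripts here had different log2 fold changes, 0.53 and -0.057, a difference that was not tested. The lowest value was that of Atp5e, the epsilon subunit. Atp5e had 6712, 5293 and 8565 CPM in the Tarsl2+/+ mice and 5512, 5330 and 4398 CPM in the Tarsl2-/- mice, with overlap at the lowest Tarsl2+/+ mouse. Its log2 fold change was -0.43 with a standard error of 0.17 (adjusted p = 0.177 by edgeR's quasi-likelihood test). It was -0.24 without Tarsl2+/+ mouse 595, and without Tarsl2+/+ mouse 584 it was -0.59 and passed (adjusted p = 0.0389 by edgeR). Atp5l was at -0.21, and its pseudogene Atp5l2-ps had 126 to 175 counts per library beside 14424 to 22740 of Atp5l. Reads of near-identical copies may be split, here for a small part of the counts. The pseudogene with the most counts was Ndufab1-ps, at 914 to 1486 beside 5981 to 9200 of the complex I member Ndufab1. The c-ring genes Atp5g1, Atp5g2 and Atp5g3, which encode the same mature protein, were at 0.23, 0.10 and -0.18, with no call (adjusted p = 0.369, 0.677 and 0.466 in the edgeR fit).

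Compared per kilobase of transcript, the levels differed between the groups. In Tarsl2+/+ muscle, over the length of 1 annotated transcript per gene, the highest was Atp5e at 16287 CPM per kilobase. With the gene length of the deposited table Atp5e was at 3905 and Cox8b, at 5643 with either length, was the highest member. Uqcrq was the highest of complex III at 5816 by transcript length, but by the deposited length it was at 1287, below Uqcr10 (1487) and Uqcr11 (1409). Ndufb9 was the highest of complex I with either length, at 1944 and 2102 CPM per kilobase. The median level by transcript length was 253 CPM per kilobase over the core subunits of complex I and 690 over the accessory subunits, and by the deposited length 236 and 394. It was 1878 in complex III, 1341 in complex IV and 1330 in complex V, and by the deposited length 979, 737 and 399. Assembly factors were lower, at a median of 32.9 (20.3 by the deposited length), and Ndufaf5 was the highest of them at 186 (121).

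Together the members took between 6.47% and 7.85% of scaled counts in the Tarsl2+/+ mice and between 6.54% and 7.03% in the Tarsl2-/- mice. The widest departure was that of Tarsl2+/+ mouse 595, in which 63 of the 87 tested members (72.4%) had their highest Tarsl2+/+ value, compared with 34.6% of all tested genes. Among the Tarsl2-/- mice, mouse 588 was highest for 50 members (57.5%), compared with 33.9% of all tested genes. Without mouse 595, the median log2 fold change was 0.084 in complex III and 0.094 over the complex I subunits, that of complex V turned from -0.035 to 0.027, and that of the accessory subunits from -0.0058 to 0.05. For the core subunits it was 0.23 without that mouse.

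Markers of other cells and fibre types also differed between these mice, and their part in the results was not tested. Skeletal muscle markers summed to between 37814 and 41122 CPM in the Tarsl2+/+ mice and between 43251 and 49763 CPM in the Tarsl2-/- mice, with no overlap. Of these 7 markers, 2 were called higher (Ckm and Actn3), 5 had log2 fold changes above 0 and 2 below (Mb and Myh4). Acta1, the most abundant of them, was not called (adjusted p = 0.568 by edgeR's quasi-likelihood test). The 10 slow fibre markers summed to 1078, 1176 and 1859 CPM in the Tarsl2+/+ mice and 1529, 2277 and 1631 CPM in the Tarsl2-/- mice. Mouse 595 was the highest Tarsl2+/+ mouse there too, and 0 of the 10 were called by edgeR, DESeq2 or limma-voom although all had log2 fold changes above 0 (median 0.41), 5 of them with an unadjusted p under 0.05. Fast fibre markers summed to between 97792 and 106800 CPM in Tarsl2+/+ and between 101190 and 113176 CPM in Tarsl2-/- muscle, with 2 of 9 called higher (Myh1 and Actn3). Actn3 and Myh4 were on this list and on that of skeletal muscle. Red cell markers summed to between 4743 and 10380 CPM in Tarsl2+/+ mice and between 4162 and 4531 in Tarsl2-/- mice, with 0 of 6 called, 5 lower at an unadjusted p under 0.05, and 1 called lower by DESeq2 and 0 by limma-voom. Leukocyte markers summed to between 1015 and 1175 CPM and to between 541 and 695, with 4 of 7 called lower. Adipocyte markers summed to between 2565 and 3984 CPM and to between 3052 and 6684, with 0 of 7 called by edgeR, DESeq2 or limma-voom and 1 higher and 1 lower at an unadjusted p under 0.05. Over all tested genes, 9.57% were higher and 10.2% lower at an unadjusted p under 0.05, and 0.896% were called higher and 1.37% lower. In bulk muscle, fewer cells of a type cannot be told apart from less RNA per cell.

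The log2 fold change of the members was also related to the length of the coding sequence. Members of 400 nt or less had a median of -0.045 (n = 40), those over 400 and up to 800 nt -0.0058 (n = 31) and those over 800 nt 0.18 (n = 16). The other protein-coding genes followed the same order with medians of -0.11, -0.037 and 0.025 (n = 667, 2277 and 10016). Across the 87 members Spearman's correlation was 0.35, and 0.22 without the core subunits of complex I, and across 12960 other protein-coding genes it was 0.13. These correlations are over genes of the same 6 libraries, which are not independent replicates. Coding lengths of the core subunits ran from 636 nt (Ndufs8) to 2181 nt (Ndufs1), and many accessory subunits were shorter. Role and length thus move together in part. Not all core subunits are over 800 nt, since Ndufs8 and Ndufv2 (744 nt) lie in the middle group. Their log2 fold changes were 0.14 and 0.17.

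The same length contrast was present in single libraries. The median log2 level of short minus long members, relative to the Tarsl2+/+ mean, was -0.0035, -0.17 and 0.091 in the Tarsl2+/+ mice and -0.16, -0.23 and -0.21 in the Tarsl2-/- mice. For the other protein-coding genes it was -0.029, -0.054 and 0.088 and then -0.095, -0.16 and -0.17. Mouse 584 thus lay among the Tarsl2-/- mice for the members, and mouse 595 stood at the other end. The part of fragment or transcript length in the differences between members was not tested.

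**Figure D5:**
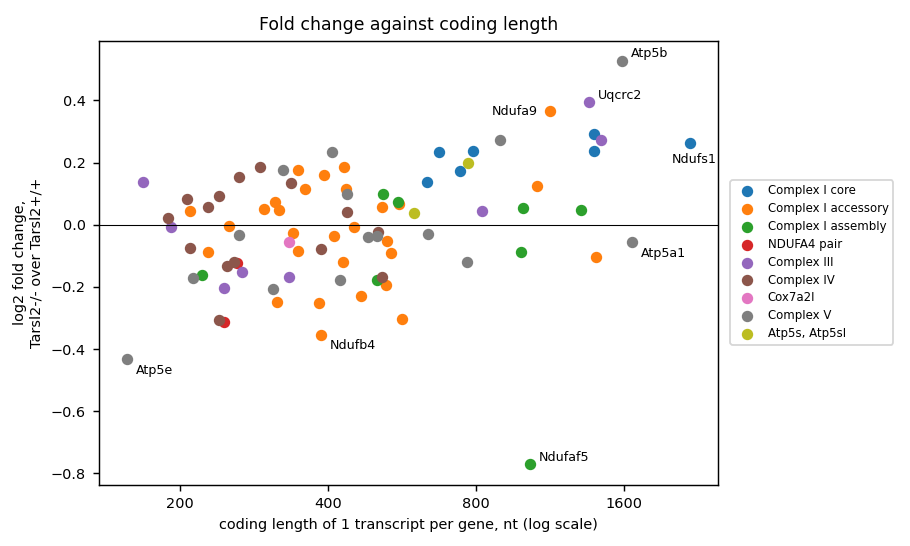
Log2 fold change (Tarsl2-/- over Tarsl2+/+, y axis) against the coding length of 1 transcript per gene (x axis, nt, log scale) for the 87 tested members, coloured by group. Members over 800 nt have a median of 0.18 and those of 400 nt or less a median of -0.045, and Ndufaf5 at -0.77 lies below both.

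Of the other genes of the pathway, 0 were called in either direction by edgeR's quasi-likelihood test and by limma-voom. DESeq2 called 1 of complex II, 1 mitochondrially encoded subunit and 1 assembly factor, all higher. The 4 subunits of complex II (Sdha, Sdhb, Sdhc and Sdhd), which feed electrons from succinate, were all above 0, with a median of 0.21 and Sdha at 0.33 (adjusted p = 0.0926 by edgeR), and 2 had an unadjusted p under 0.05. Cyc1 is a complex III subunit outside the name rule, so it is not in the complex III median, and it was at 0.21. Cycs, which is cytochrome c, was at 0.10. Of the 13 mitochondrially encoded subunits 12 were above 0, with a median of 0.27, and 4 had an unadjusted p under 0.05. They summed to 37959, 55519 and 44324 CPM in the Tarsl2+/+ mice and 59321, 62638 and 47581 CPM in the Tarsl2-/- mice, so that the genotypes overlapped, and mouse 595 was not the highest Tarsl2+/+ mouse here. The closest of them to the threshold was mt-Atp6 at 0.50 (adjusted p = 0.0592 by edgeR). Atpif1, Usmg5 and 2010107E04Rik, small proteins of ATP synthase outside the name rule, were all below 0 with a median of -0.23. Among 39 tested assembly factors and translation factors outside the rule, 22 were above 0 and 17 below, with a median of 0.065, and 8 were higher and 5 lower at an unadjusted p under 0.05, a cut that 9.57% of all tested genes passed as higher and 10.2% as lower.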

How the data were processed

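Muscle RNA of 6 mice, 3 of each genotype, was sequenced. Per the study's methods, libraries were made with a stranded mRNA kit, and reads were mapped with HISAT2 to mm10, whereas the submitters' processing notes name Bowtie 0.12.2 and mm8. The table the authors deposited holds raw read counts for each gene, not normalized, with coordinates. The counting tool, annotation and strand setting are not given in the sources used here. Coordinates of 75 of the 89 members were identical in GENCODE vM21 (GRCm38), which gave transcript and coding lengths. Rows without a gene name (448) hold no member. Some values of single members are not reported here.

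Genotypes came from the sample records. Genes were kept by filterByExpr (minimum count 10, minimum total 15), scaled by TMM, and fitted with glmQLFit and glmQLFTest of edgeR 4.0.16 in R 4.3.3, with genotype only. The Benjamini-Hochberg correction was made over 15075 genes, with a threshold of 0.05. Standard errors are the absolute log2 fold change over the root of the F statistic. The common biological coefficient of variation was 12.1%. No pair of libraries of a genotype agreed within sampling noise, with chi-square values per gene from 12.0 upwards. Group levels used log2 CPM with a prior count of 2, and isoform ratios a pseudocount of 0.5. The procedure was tested on simulated data.

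The members, the pathway and marker lists and the tests were chosen with earlier results of these data known. Named were the called members, in each group the 2 highest and 2 lowest log2 fold changes, the highest level per length in each complex, tissue isoforms and c-ring genes, and members left out by the filter. Alternatives were DESeq2 1.42.0, limma-voom (limma 3.58.1), RLE and upper quartile scaling, other filters, another pseudocount for the ratios, each library left out and, added after seeing the data, the assembly factors without Ndufaf5.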

Additional observations from a re-analysis of the deposited data

How the results depend on the processing

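The 3 called members depended on the processing in part. With DESeq2, 719 of 15075 tested genes and 5 of the 87 tested members were called, adding Ndufv1 and Uqcrc2. With no filter beyond 1 count in any library, 1437 of 25553 tested genes and 6 members were called. This added Atp5e and Ndufb4 as lower and Uqcrc2 as higher. Leaving out 1 library gave from 81 called genes of 15411 tested (without Tarsl2+/+ mouse 583) to 625 of 15394 (without Tarsl2+/+ mouse 584). Between 1 and 5 members were called in these fits. Without mouse 584, 5 members were called, and without any other library only Ndufaf5 was. With RLE or upper quartile scaling Ndufa9 no longer passed (adjusted p = 0.0501 and 0.0602 by edgeR), and Ndufaf5 and Atp5b were the calls. With limma-voom, at least 10 counts in every library or protein-coding genes only, 3 members were called. Over the libraries left out, the median of complex III lay between -0.016 and 0.084, that of complex IV between -0.032 and 0.041, that of complex V between -0.071 and 0.027 and that of the assembly factors between -0.058 and 0.0060. Without Ndufaf5, an alternative chosen after seeing the data, the median of the assembly factors was 0.047. Under upper quartile scaling the medians of complexes III and IV were -0.0031 and -0.0011. The difference in the log2 ratio ranged from -0.15 to 0.25 for Cox6a2 over Cox6a1 and from -0.32 to 0.017 for Cox8b over Cox8a. It changed sign without Tarsl2+/+ mouse 583 or Tarsl2-/- mouse 588 for the first, and without Tarsl2+/+ mouse 595 for the second. Of the 87 tested members, 24 had a log2 fold change of the other sign in at least 1 of the fits that left out a library, 17 of them without Tarsl2+/+ mouse 595, and 0 of the 3 called members did. Among the members chosen by the naming rule these were Cox4i1 (-0.092 to 0.053), Cox6a1 (-0.045 to 0.29), Cox8a (-0.030 to 0.16) and Ndufaf3 (-0.016 to 0.16). The cause was not tested. No paired analysis was made, because the sources used here give no litter or pairing for the 6 sequenced mice. With 3 mice per genotype, the standard errors of the core subunits of complex I were between 0.083 and 0.098 on the log2 scale.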
